A study of Mus musculus with 4 samples.

Results

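The WWP2 knockout library was set against the wild-type library, which are 2 of the 4 RNA sequencing libraries of the study, chosen by their genotype labels. Both came from splenic CD4+ T cells of B6 mice 6 weeks old, stimulated with phorbol ester (PMA) plus ionomycin, a pair of drugs that switches on protein kinase C and calcium signalling without the antigen receptor. The WWP2 KO cells carried the genotype WWP2-/-. Of the remaining libraries, 1 came from Itchf/f Cd4cre mice, in which Cre expressed from the Cd4 promoter removes Itch in T cells, and 1 was labelled DKO (Itch and WWP2). They serve here as side values. The sources used here give neither the number of mice behind a library, nor the time of stimulation, nor how the WWP2 allele was made. Each genotype has 1 library, so replicate error is unknown and no p-value was computed. Intervals in parentheses are exact 95% intervals of a ratio of read counts and cover counting error only.

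WWP2 is a ubiquitin ligase of the NEDD4 family. Its members bind substrates through WW domains, which recognise short proline-tyrosine motifs, and pass ubiquitin from a catalytic HECT domain. Adaptors such as the alpha-arrestins and the Ndfip proteins carry such motifs and bring ligase and cargo together. Itch, the best known member in T cells, restrains type 2 helper responses in mice.

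Depth was alike, from 17130747 reads in WWP2 KO to 17990392 in the library labelled double KO, with 17627531 in wild type. Defining CD4 T cell markers were read in both libraries, their summed level being 1810 CPM (reads scaled to a common library size) in WWP2 KO and 1927 CPM in wild type over 8 of 8 genes. B cell markers summed to 3.33 CPM in WWP2 KO and 3.86 CPM in wild type, with no read of Pax5 or Fcrla in any library. Sums of the CD8, plasma cell, monocyte, neutrophil, erythroid and platelet lists lay between 0.233 and 6.53 CPM in WWP2 KO and between 0.288 and 7.44 CPM in wild type. NK cell markers stood at 9.97 CPM in WWP2 KO and 14.2 CPM in wild type. The larger sums of the mast cell, dendritic and stromal lists (28.9, 50.5 and 77.6 CPM in WWP2 KO, against 24.9, 57.7 and 75.2 CPM in wild type) include genes that T cells also express, such as Cd74, Bst2 and Pecam1.

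Wwp2 itself checked the label. It had 4 reads in WWP2 KO, 1332 in Itch KO, 1135 in the library labelled double KO and 1363 in wild type. The WWP2 KO library therefore lacked nearly all Wwp2 reads, at a level 337-fold lower than wild type (131 to 1238). The library labelled double KO held them, which puts its label in doubt. Itch had 1996 reads in WWP2 KO and 2083 in wild type, a ratio of 0.969 (0.911 to 1.03). Itch KO had 1914, and since the deleted exons cannot be read apart in a whole-gene count, this does not check its label.

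Few genes besides Wwp2 differed much. Of 9926 genes with a mean of at least 2 CPM over the 4 libraries, called tested genes from here on, 28 (0.282%) were at least 2-fold higher in WWP2 KO and 16 (0.161%) at least 2-fold lower, Wwp2 included. Some of these met that mean only through the Itch KO and labelled double KO libraries. Among them were Mt1, Mt2, Il3, Cd7, Rpph1, Oaz1, Spc25, Cdc42bpb, Hbegf, Dcbld2 and Alox8. With filter and scaling from the WWP2 KO and wild-type libraries alone, 23 genes were higher and 11 lower. A gene was called when its log2 ratio, computed with a prior count of 2, reached 1 in either direction and the interval of its fold excluded 1. The middle of the distribution was narrow, with a median log2 ratio of -0.01 and 5th and 95th percentiles of -0.31 and 0.37. The same percentiles of Itch KO over the same wild-type library were -0.56 and 0.99. Among the called genes, 20 of the 28 higher and 6 of the 16 lower ones had under 50 reads in wild type. Just inside the rule were Alox8 at 1.01 and Mmp12 at -1.02 on the log2 scale. Just outside were Depdc1a, at 1.01 on 12 reads in WWP2 KO and 5 in wild type, whose interval (0.796 to 8.79) included 1, and Anxa1 at -0.99.

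Smaller differences were read by a second rule, that a gene be at least 25% higher, or at least 20% lower, by the same log2 ratio and with an interval that excluded 1. These bounds lie equally far from 1 on the log scale. By this rule 4.14% of the tested genes were higher in WWP2 KO and 2.46% were lower. A gene was called held when its whole interval lay inside the same bounds, which was so for 57.1% of the tested genes. Being held depends on depth. In the least expressed of 5 equal bins, up to 9.87 CPM, 0.352% of genes were held, and in the most expressed, from 124 CPM, 94.8% were.

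**Figure D1:**
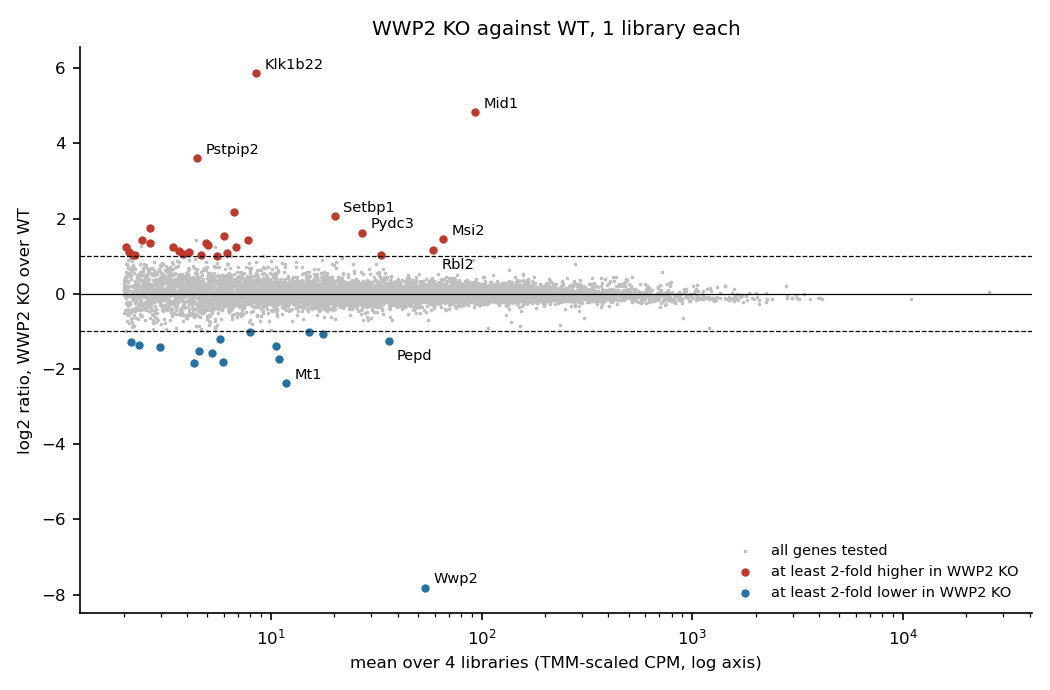
Each point is a gene, with its mean over the 4 libraries on the horizontal axis (TMM-scaled CPM, log axis) and its log2 ratio of WWP2 KO over wild type (WT in the plot) on the vertical axis; dashed lines mark 2-fold. The 28 red and 16 blue points passed the 2-fold rule, and Wwp2 at -7.82, Klk1b22 at 5.88 and Mid1 at 4.84 stand far from the band of all other genes.

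The highest ratios were in genes with few reads in wild type. Klk1b22, a kallikrein gene of a cluster of near-identical copies, had 115 reads in WWP2 KO, 0 in Itch KO, 508 in the library labelled double KO and 0 in wild type. It was at least 38.8-fold higher in WWP2 KO than in wild type, computed against 3 reads in the wild-type library. Its relative Klk1b24, named after its values were seen, had 3 reads in WWP2 KO, 19 in the library labelled double KO and 0 in Itch KO and wild type, so both genes were read in the same libraries. Klk1b27, a relative also looked up after its values were seen, did not show this. It had 1 read in WWP2 KO, 3 in Itch KO, 1 in the library labelled double KO and 2 in wild type. Reads of such copies may be assigned to the wrong member. Mid1 encodes a microtubule-bound ubiquitin ligase, and in laboratory mice its gene crosses the boundary of the pseudoautosomal region. Mid1 had 2570 reads in WWP2 KO, 185 in Itch KO, 3839 in the library labelled double KO and 89 in wild type, 29.2-fold higher in WWP2 KO than in wild type (23.6 to 36.5). High Mid1 and Klk1b22 counts thus occurred in WWP2 KO, with 4 reads of Wwp2, and also where Wwp2 had 1135. G530011O06Rik, a noncoding gene next to Mid1 in the gene order, had 129 reads in WWP2 KO and 61 in wild type.

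Pstpip2 encodes an F-BAR adaptor best known for restraining macrophage inflammation. Pstpip2 had 251 reads in WWP2 KO, 6 in Itch KO, 32 in the library labelled double KO and 19 in wild type, 13.4-fold higher in WWP2 KO than in wild type (8.38 to 22.6). Setbp1, which encodes a partner of the SET oncoprotein, had 333 reads in WWP2 KO, 124 in Itch KO, 915 in the library labelled double KO and 79 in wild type (4.26-fold, 3.33 to 5.52). The first was high in WWP2 KO alone and the second was higher still in the library labelled double KO. Msi2, encoding the RNA-binding protein Musashi-2 of stem and progenitor cells, had 2300 reads in WWP2 KO, 791 in Itch KO, 645 in the library labelled double KO and 848 in wild type (2.74-fold, 2.53 to 2.97). Pydc3, named Ifi208 in RefSeq, belongs to the interferon-inducible PYHIN family, whose members are similar enough that reads may be misassigned. It had 926 reads in WWP2 KO, 277 in Itch KO, 391 in the library labelled double KO and 302 in wild type (3.10-fold, 2.72 to 3.54). For Msi2 and Pydc3 the WWP2 KO library lay above all 3 others, which were close to one another.

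Rbl2, encoding the pocket protein p130 that holds E2F targets silent in resting cells, had 1019 reads in WWP2 KO, 531 in Itch KO, 2226 in the library labelled double KO and 461 in wild type (2.24-fold, 2.0 to 2.50). The remaining higher genes had few reads. Arrdc4, an alpha-arrestin adaptor of NEDD4-family ligases, had 97 reads in WWP2 KO, 66 in Itch KO, 149 in the library labelled double KO and 37 in wild type (2.65-fold, 1.80 to 3.98). Cdc42bpb, a kinase gene downstream of Cdc42, had 51 reads in WWP2 KO and 14 in wild type, and Mctp1, a calcium-binding membrane protein gene, had 59 in WWP2 KO and 21 in wild type. Ppic, a cyclophilin gene, had 74 reads in WWP2 KO and 28 in wild type, and Hbegf, encoding a ligand of the EGF receptor, had 47 in WWP2 KO and 19 in wild type. The kinetochore gene Spc25 had 25 reads in WWP2 KO, 69 in Itch KO, 264 in the library labelled double KO and 9 in wild type. Nav2 had 195 reads in WWP2 KO, 550 in Itch KO, 1565 in the library labelled double KO and 95 in wild type. The wild-type library was thus the lowest of the 4 for Spc25 and Nav2. It was also the lowest for Rbl2, Arrdc4, Cdc42bpb, Mctp1, Ppic and Hbegf. Dcbld2, Marveld2, Ttn, H2-T22, Cxcl16, Col7a1 and Alox8 had 22 to 61 reads in WWP2 KO and 10 to 29 in wild type. Wild type was the lowest library for these genes too, except H2-T22 and Cxcl16. Such genes do not set the WWP2 KO library apart from the Itch KO and labelled double KO libraries. Among the gene models left out of the ranking, D630039A03Rik had 7 reads in WWP2 KO and 0 in wild type, A930015D03Rik had 101 in WWP2 KO and 48 in wild type, and Gm14492, named Prr33 in RefSeq, had 128 in WWP2 KO and 62 in wild type.

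**Figure D2:**
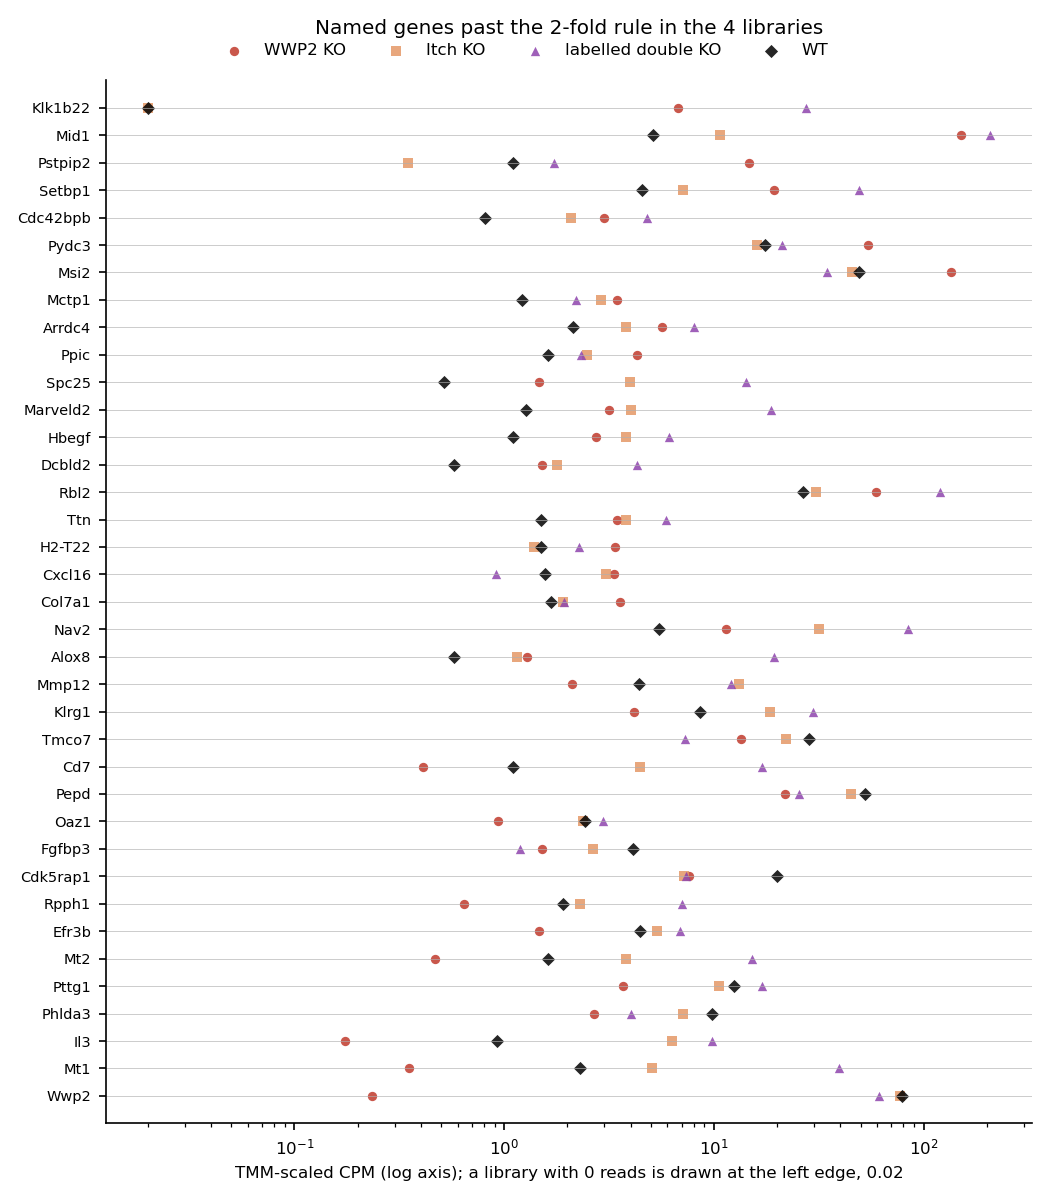
TMM-scaled CPM (log axis) of named genes past the 2-fold rule, 1 gene a row, ordered by the ratio of WWP2 KO over wild type, with 1 symbol for each of the 4 libraries (WT, wild type) and libraries without a read drawn at 0.02. Msi2 and Pydc3 are high in WWP2 KO alone, Mid1 and Klk1b22 are high also in the library labelled double KO, and for Cdk5rap1 the wild-type library stands apart from the other 3.

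The metallothionein genes Mt1 and Mt2 were among the lower genes. Metallothioneins are small cysteine-rich proteins that buffer zinc and copper, and their genes are switched on by the zinc-sensing factor MTF1 through metal response elements. Mt1 had 6 reads in WWP2 KO, 88 in Itch KO, 735 in the library labelled double KO and 40 in wild type, 6.59-fold lower than in wild type (2.78 to 19.0). Mt2 had 8 reads in WWP2 KO, 66 in Itch KO, 282 in the library labelled double KO and 28 in wild type, 3.46-fold lower (1.54 to 8.79). Both genes were lowest in WWP2 KO and highest in the library labelled double KO. Mt1 stood at 0.350 CPM in WWP2 KO and 2.31 CPM in wild type, and Mt2 at 0.467 and 1.62 CPM. Both met the mean of 2 CPM only through the Itch KO and labelled double KO libraries. High counts there are thus partly set by the filter. Slc30a1, the zinc exporter gene that MTF1 also switches on, had 93 reads in WWP2 KO, 194 in Itch KO, 339 in the library labelled double KO and 137 in wild type (1.46-fold lower, 1.11 to 1.92). Its libraries stood in the same order as those of Mt1 and Mt2. Mtf1 itself had 1167 reads in WWP2 KO and 1208 in wild type. Of the 20 tested genes on the list of metallothioneins and zinc transport, 3 were at least 20% lower, Mt1, Mt2 and Slc30a1, and 1 was higher, the zinc importer gene Slc39a10 at 1.36-fold (1.28 to 1.45), against 2.46% and 4.14% of all genes. Mt1 and Mt2 entered this count only through the Itch KO and labelled double KO libraries. The list median was -0.04, and -0.03 with filter and scaling from the WWP2 KO and wild-type libraries alone.

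The promoters of Mt1, Mt2 and Slc30a1 are shown because these genes were lower together and share a described element. Each window runs from 250 bases before to 50 after the RefSeq start on GRCm38.p6, and capitals mark matches to TGCACNC or TGCGCNC, the core of the metal response element, on either strand.
Mt1, chr8:94178839-94179138, + strand: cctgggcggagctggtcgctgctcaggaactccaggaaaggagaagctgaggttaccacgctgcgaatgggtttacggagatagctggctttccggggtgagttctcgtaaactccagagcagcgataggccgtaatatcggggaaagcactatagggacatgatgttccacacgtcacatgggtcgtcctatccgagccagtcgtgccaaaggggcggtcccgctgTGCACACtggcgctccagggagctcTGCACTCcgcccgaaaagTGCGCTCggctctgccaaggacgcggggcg
Mt2, chr8:94172368-94172667, + strand: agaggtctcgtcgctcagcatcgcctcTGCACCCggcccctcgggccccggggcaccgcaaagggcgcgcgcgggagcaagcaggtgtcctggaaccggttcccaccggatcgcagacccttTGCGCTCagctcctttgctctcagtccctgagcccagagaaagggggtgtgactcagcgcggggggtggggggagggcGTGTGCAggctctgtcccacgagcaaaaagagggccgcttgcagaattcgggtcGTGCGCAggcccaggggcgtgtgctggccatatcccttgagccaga
Slc30a1, chr1:191906531-191906830, + strand: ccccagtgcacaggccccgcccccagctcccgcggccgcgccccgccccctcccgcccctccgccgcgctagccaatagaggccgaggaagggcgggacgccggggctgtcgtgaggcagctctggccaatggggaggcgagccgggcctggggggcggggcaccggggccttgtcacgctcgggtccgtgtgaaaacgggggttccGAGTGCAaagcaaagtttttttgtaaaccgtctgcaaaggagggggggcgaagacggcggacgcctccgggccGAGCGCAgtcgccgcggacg

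The Mt1 window held 3 matches, all on the strand of the gene. The Mt2 window held 4 matches, 2 on each strand, and the Slc30a1 window held 2, both on the opposite strand. In each window, some matches lie in the 50 bases after the RefSeq start. Among 32851 RefSeq promoters of the same length, 7.11% held at least 2 matches, 1.97% at least 3 and 0.517% at least 4. The genes shown were picked as ones that MTF1 switches on, so these shares do not test them. A match describes the letters and does not show that MTF1 binds there.

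Phlda3, a p53 target that restrains Akt, had 46 reads in WWP2 KO, 124 in Itch KO, 75 in the library labelled double KO and 170 in wild type, 3.65-fold lower than in wild type (2.62 to 5.18). Pttg1, the securin gene of chromosome separation, had 63 reads in WWP2 KO, 183 in Itch KO, 315 in the library labelled double KO and 216 in wild type (3.39-fold lower, 2.55 to 4.56). WWP2 KO was the lowest library for both. Pepd, encoding the dipeptidase prolidase, had 374 reads in WWP2 KO, 783 in Itch KO, 473 in the library labelled double KO and 912 in wild type (2.41-fold lower, 2.14 to 2.73). Cdk5rap1, which encodes a modifying enzyme of mitochondrial transfer RNA, had 130 reads in WWP2 KO, 125 in Itch KO, 137 in the library labelled double KO and 348 in wild type. Here the wild-type library stood apart from the 3 others, and the gene was 2.65-fold lower in WWP2 KO than there (2.16 to 3.26).

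Efr3b had 25 reads in WWP2 KO and 77 in wild type, Fgfbp3 had 26 in WWP2 KO and 71 in wild type, and the antizyme gene Oaz1, a brake on polyamine synthesis, had 16 in WWP2 KO and 42 in wild type. Klrg1, a receptor of terminally differentiated effector and Treg cells, had 71 reads in WWP2 KO, 319 in Itch KO, 552 in the library labelled double KO and 148 in wild type (2.06-fold lower, 1.54 to 2.78). Cd7 had 7 reads in WWP2 KO and 19 in wild type, the cytokine gene Il3 had 3 in WWP2 KO and 16 in wild type, and the metalloelastase gene Mmp12 had 36 in WWP2 KO and 76 in wild type. Klrg1, Cd7, Il3 and Mmp12 were lowest in WWP2 KO, and their Itch KO counts lay between 77 and 319. Cd7 and Il3 met the mean of 2 CPM only through the Itch KO and labelled double KO libraries, so high counts there are partly set by the filter. Rpph1, the RNA of ribonuclease P, which has no poly(A) tail, had 11 reads in WWP2 KO and 33 in wild type. Tmco7, named Tango6 in RefSeq, had 231 reads in WWP2 KO, 381 in Itch KO, 135 in the library labelled double KO and 490 in wild type (2.10-fold lower, 1.79 to 2.46).

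Some called genes lay close together. In the RefSeq gene order, 12 tested genes lie between Tmco7 and Wwp2 on chromosome 8, and the adjacent genes Mt2 and Mt1 lie on the same chromosome, with Rbl2 separated from Mt2 by 6 tested genes. Chromosome 8 held 4 of the 16 lower genes among 531 tested there, or 0.753%, against 0.161% over all genes. The 4 were Wwp2 itself, Tmco7, Mt1 and Mt2, so the count includes the knockout target. It also includes Mt1 and Mt2, which met the mean of 2 CPM only through the Itch KO and labelled double KO libraries. Chromosome 18 held 6 of the 28 higher genes among 247 tested, or 2.43%, against 0.282% over all genes. They were Pstpip2 and Setbp1, with 2 tested genes between them, the adjacent genes Gm4951 and Gm4841, and Ppic and Hbegf. Hbegf, too, met the mean of 2 CPM only through the Itch KO and labelled double KO libraries. The median log2 ratio of chromosome 18 was -0.02. By the smaller rule 20 of its 247 tested genes, or 8.10%, were higher and 10, or 4.05%, were lower, against 4.14% and 2.46% of all genes. The 10 tested genes on each side of Wwp2 had a median log2 ratio of -0.01, and 11 of these 20 were held, a share near the 57.1% of all genes. Nob1 and Psmd7, which flank Wwp2, were at 0.982 (0.921 to 1.05) and 0.885 (0.838 to 0.935) of the wild-type level. Of the 20, 2 were at least 25% higher, against 4.14% of all genes, and 0 were at least 20% lower. They were Sntb2, with 230 reads in WWP2 KO and 133 in wild type (1.75-fold, 1.41 to 2.18), and Nfat5, with 4098 in WWP2 KO and 3164 in wild type.

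**Figure D3:**
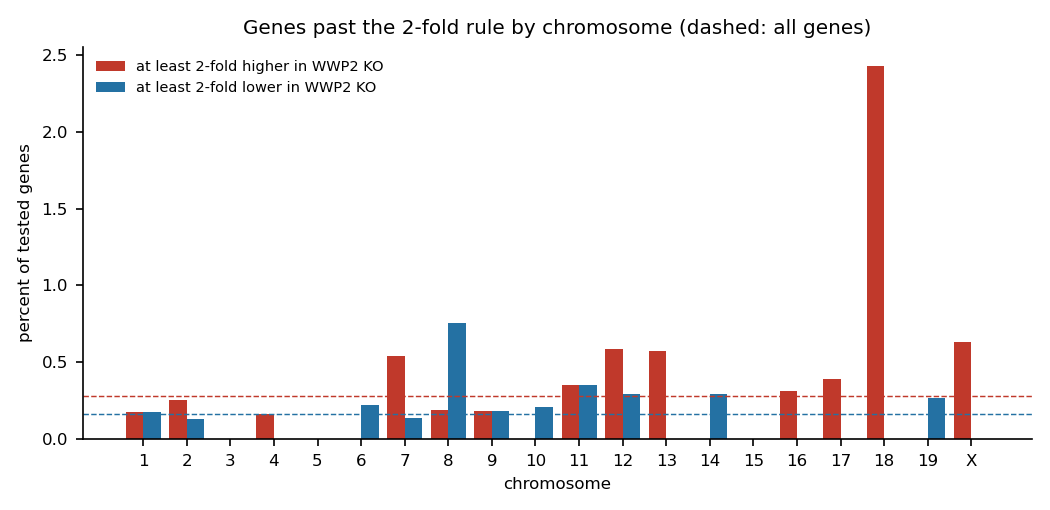
Percent of the tested genes on each chromosome that were at least 2-fold higher (red) or at least 2-fold lower (blue) in WWP2 KO than in wild type, with dashed lines at the values for all genes, 0.282% and 0.161%. Chromosome 18 stands at 2.43% for higher genes and chromosome 8 at 0.753% for lower genes, Wwp2 itself included. Of the genes counted there, Mt1, Mt2 and Hbegf met the mean of 2 CPM only through the Itch KO and labelled double KO libraries.

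Among WWP2, its family and adaptors, 3 of 14 tested members were at least 25% higher and 1, Wwp2, was at least 20% lower, against 4.14% and 2.46% of all genes. The higher members were alpha-arrestin genes, Arrdc4, Arrdc3 at 1.44-fold (1.23 to 1.68) and Txnip at 1.35-fold (1.22 to 1.49). Arrdc3 had 401 reads in WWP2 KO, 211 in Itch KO, 264 in the library labelled double KO and 282 in wild type. Txnip, which also brakes glucose uptake, had 917 reads in WWP2 KO, 786 in Itch KO, 1771 in the library labelled double KO and 688 in wild type. Arrdc1 was at 1.22-fold (1.07 to 1.38) and Arrdc2 at 1.07-fold (0.903 to 1.28), neither passing the rule. The closest paralogue, Wwp1, was at 1.13-fold (1.01 to 1.27), with 624 reads in WWP2 KO and 558 in wild type. The ligases Smurf1 and Smurf2 were at 1.07-fold (0.976 to 1.16) and 0.980-fold (0.899 to 1.07). The adaptor genes Ndfip1 and Ndfip2 were at 0.874-fold (0.840 to 0.911) and 0.844-fold (0.766 to 0.929). Nedd4 and Nedd4l, with 34 and 115 reads in WWP2 KO and 45 and 94 in wild type, had intervals that included 1.

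Of 11 tested genes whose proteins are reported elsewhere as WWP2 substrates, 0 were at least 25% higher or 20% lower, against 4.14% and 2.46% of all genes. Of the 11, 9 were held, against 57.1% of all genes; 7 lay in the 2 most expressed bins, where 88.6% and 94.8% were held. Egr2, a transcription factor of T cell tolerance and activation, had 4490 reads in WWP2 KO and 4506 in wild type, a ratio of 1.01 (0.967 to 1.05). Smad2, a signal carrier of TGF-beta receptors, was at 0.982-fold (0.906 to 1.06) and Polr2a, the large subunit of RNA polymerase II, at 1.14-fold (1.10 to 1.18). RNA counts say nothing of protein levels, on which a ubiquitin ligase acts.

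Treg genes had the highest median of the 34 lists of function, 0.21, against -0.01 for all tested genes. Of 23 tested members 8 were at least 25% higher in WWP2 KO, 1 was at least 20% lower and 8 were held, against 4.14%, 2.46% and 57.1% of all genes. Foxp3, the lineage factor, had 3791 reads in WWP2 KO, 5029 in Itch KO, 3039 in the library labelled double KO and 3005 in wild type (1.28-fold, 1.22 to 1.34). Lrrc32, which anchors latent TGF-beta on Treg cells, had 3034 reads in WWP2 KO, 3644 in Itch KO, 3561 in the library labelled double KO and 2242 in wild type (1.37-fold, 1.3 to 1.45). Ikzf2, encoding Helios, was at 1.26-fold (1.14 to 1.38), Ikzf4 at 1.46-fold (1.24 to 1.72), Nrp1 at 1.46-fold (1.23 to 1.73), Gpr83 at 1.47-fold (1.20 to 1.80), Itgae at 1.52-fold (1.10 to 2.13) and Socs2 at 1.31-fold (1.05 to 1.64). The 1 lower member was Klrg1, 2.06-fold lower. Of the 23 members, 15 had a ratio above 0 on the log2 scale and 8 a ratio below 0. In a bulk library, more cells of a type and more RNA per cell cannot be told apart. The Treg median of Itch KO over the same wild-type library was 1.14 and that of the library labelled double KO was 1.20.

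Naive and quiescence genes had a median of 0.20, with 5 of 28 tested members higher and 0 lower, against 4.14% and 2.46% of all genes. Klf2, the factor that keeps naive T cells resting and recirculating, had 491 reads in WWP2 KO, 322 in Itch KO, 473 in the library labelled double KO and 345 in wild type (1.44-fold, 1.252 to 1.66). Its target S1pr1, the receptor for exit from lymphoid tissue, had 569 reads in WWP2 KO, 262 in Itch KO, 311 in the library labelled double KO and 400 in wild type (1.44-fold, 1.26 to 1.64). Pik3ip1, an inhibitor of PI3 kinase, was at 1.31-fold (1.17 to 1.46), and Nsg2 at 1.28-fold (1.08 to 1.51). Over the same wild-type library the median of the list was 0.06 in Itch KO, and the library labelled double KO stood at -0.35. Effector and memory genes had a median of -0.14, with 3 of 28 members higher and 4 lower, against the same shares. Gzmb, the granzyme B gene, had 480 reads in WWP2 KO, 3025 in Itch KO, 62971 in the library labelled double KO and 767 in wild type (0.633-fold, 0.563 to 0.710). Among the lower members Cxcr6 was at 0.751-fold (0.681 to 0.828) and Cd7 at 0.373-fold (0.132 to 0.926). The higher members were Ahnak at 1.27-fold, Itga4 at 1.33-fold and Il18r1 at 1.36-fold.

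NK cell markers were lower beside these effector genes. Klrb1c had 57 reads in WWP2 KO and 88 in wild type (0.655-fold, 0.461 to 0.924) and Klrd1 had 78 in WWP2 KO and 115 in wild type (0.686-fold, 0.508 to 0.922). The summed NK list was at 9.97 CPM in WWP2 KO and 14.2 CPM in wild type over 8 genes, of which 3, Klra4 and Klra8 among them, had no read in either. Their part in the effector result was not tested. Cd4 itself, among the defining T cell markers, was at 0.721-fold (0.687 to 0.756), on 2901 reads in WWP2 KO, 4262 in Itch KO, 9441 in the library labelled double KO and 4069 in wild type. The other 7 markers of CD4 T cells did not pass the rule.

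Genes that p53 switches on had the lowest median of the 34 lists of function, -0.24, and 18 of 21 tested members had a ratio below 0 on the log2 scale. By the smaller rule 8 were lower and 0 higher, against 2.46% and 4.14% of all genes. Besides Phlda3 they included Sesn2, a sensor of leucine and stress, with 485 reads in WWP2 KO, 530 in Itch KO, 209 in the library labelled double KO and 797 in wild type (0.615-fold, 0.549 to 0.690). Cdkn1a, the cell cycle inhibitor p21, had 1177 reads in WWP2 KO, 1703 in Itch KO, 2138 in the library labelled double KO and 1533 in wild type (0.776-fold, 0.719 to 0.838). It was lowest in WWP2 KO. Bbc3, the pro-apoptotic gene Puma, was at 0.732-fold (0.640 to 0.837), Ddit4 at 0.643-fold (0.562 to 0.734), Gtse1 at 0.660-fold (0.471 to 0.918), Polk at 0.767-fold (0.650 to 0.903) and Zmat3 at 0.795-fold (0.698 to 0.904). The p53 median was -0.01 in Itch KO over the same wild-type library and 0.30 in the library labelled double KO.

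Sesn2 and Ddit4 also belong to the unfolded protein and integrated stress response, where 6 of 35 tested genes were at least 20% lower and 0 were higher, against 2.46% and 4.14% of all genes. Herpud1, a component of protein disposal from the endoplasmic reticulum, had 1468 reads in WWP2 KO, 1795 in Itch KO, 1483 in the library labelled double KO and 2780 in wild type (0.534-fold, 0.501 to 0.569). Trib3 had 279 reads in WWP2 KO, 191 in Itch KO, 61 in the library labelled double KO and 454 in wild type (0.621-fold, 0.533 to 0.723). The cystine transporter gene Slc7a11 had 103 reads in WWP2 KO, 61 in Itch KO, 7 in the library labelled double KO and 203 in wild type (0.513-fold, 0.401 to 0.654), and Chac1, which degrades glutathione, had 42 in WWP2 KO, 61 in Itch KO, 36 in the library labelled double KO and 83 in wild type. For these 4 genes the wild-type library was the highest of all. The list median was -0.09, and 24 members were held. All 20 tRNA synthetase genes had ratios below 0, with a median of -0.15 and 1 gene, Gars, past the 20% bound at 0.781 (0.757 to 0.806). Over the same wild-type library their median was -0.41 in Itch KO, and the library labelled double KO stood at -1.13.

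Interferon-stimulated genes had a median of 0.20, with 6 of 35 tested members higher and 1 lower, against 4.14% and 2.46% of all genes. Iigp1, an interferon-inducible GTPase gene, had 6598 reads in WWP2 KO, 5269 in Itch KO, 3623 in the library labelled double KO and 3873 in wild type (1.72-fold, 1.66 to 1.79). Gm4951 and Gm4841, which RefSeq also lists as Ifgga2 and Ifgga3 and which were named after their values were seen, were at 3.08-fold (1.88 to 5.24) and 2.75-fold (1.96 to 3.93). Gm4951 had 67 reads in WWP2 KO, 94 in Itch KO, 250 in the library labelled double KO and 22 in wild type. Gm4841 had 128, 194, 182 and 47 in the same order, so wild type was the lowest library for both. Igtp, another GTPase of the family, was at 1.30-fold (1.27 to 1.34), Gbp3 at 1.36-fold (1.27 to 1.45) and Parp14 at 1.34-fold (1.29 to 1.39). Stat2 was at 1.26-fold (1.15 to 1.39). Against them, Ifit3 was at 0.643-fold (0.520 to 0.792), and 10 of the 35 members had a ratio below 0 on the log2 scale. Isg15 was at 1.14-fold (0.919 to 1.4), with an interval that included 1. Gbp2 and Irgm1, of the same GTPase families, were held at 1.15-fold each, so the members were not all past the rule. Ifng had 291 reads in WWP2 KO and 312 in wild type (0.943-fold, 0.801 to 1.11). Socs1, a feedback inhibitor of cytokine receptors, was at 1.36-fold (1.24 to 1.50) and Jak3, the kinase of the common gamma chain, at 1.37-fold (1.26 to 1.49), among 4 of 22 SOCS, JAK and STAT genes that were higher and 0 that were lower, against 4.14% and 2.46%.

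**Figure D4:**
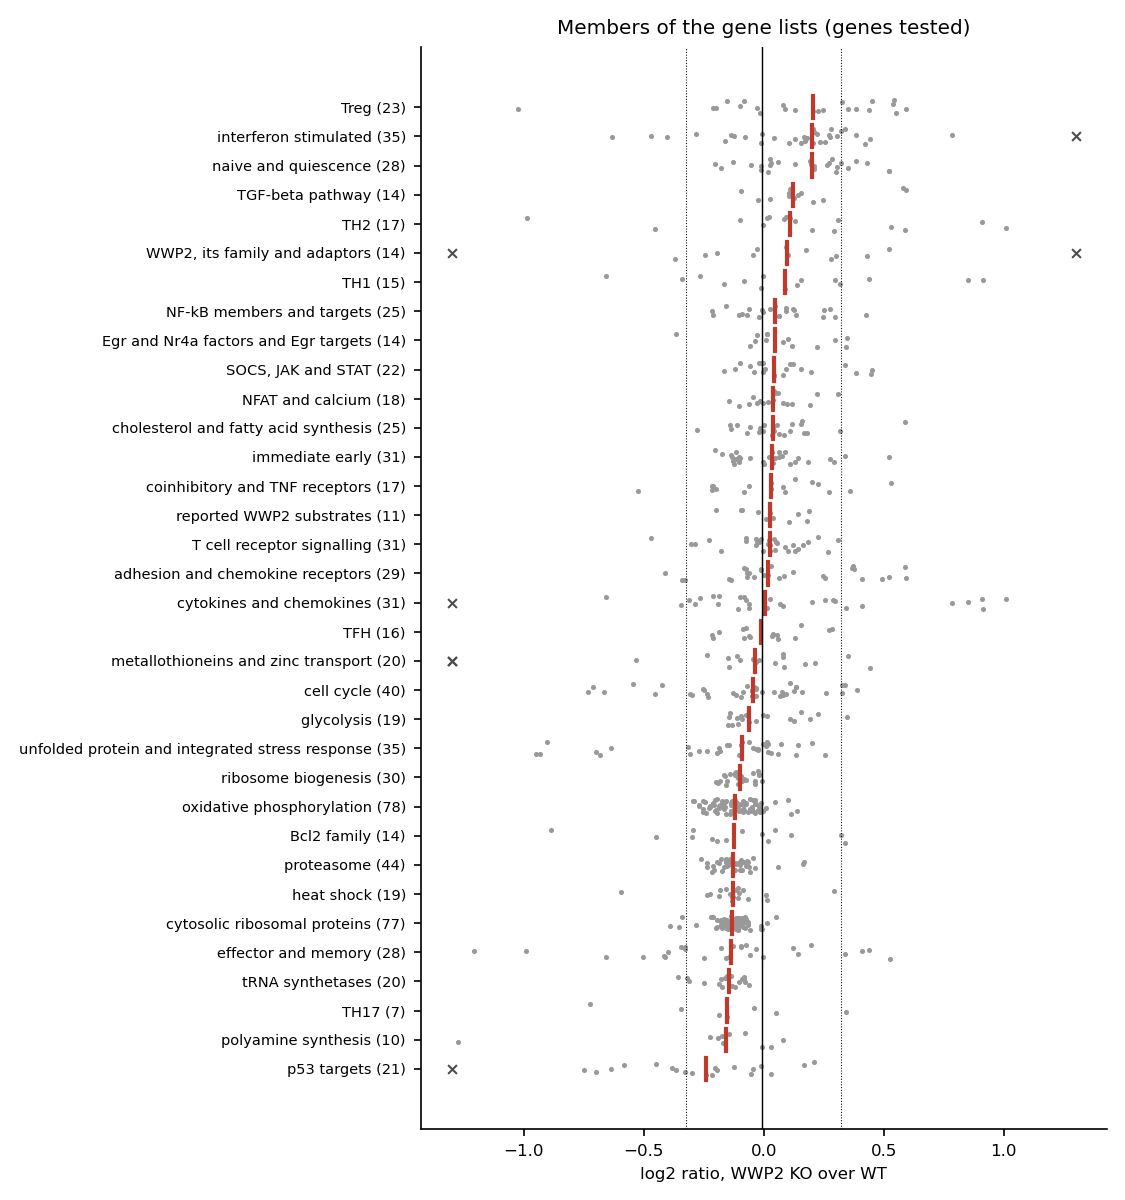
Log2 ratios of WWP2 KO over wild type for the tested members of the 34 lists of function (grey points, number of members in parentheses), with list medians as red bars, the median of all tested genes as a solid line and the bounds of the smaller rule (25% higher, 20% lower) as dotted lines. Crosses at the edges are members beyond 1.3 in either direction and can overlie one another. Medians run from -0.24 for p53 targets to 0.21 for Treg genes, while ribosome biogenesis and ribosomal protein genes form tight clusters just below 0.

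Of 31 tested cytokine and chemokine genes 5 were higher by the smaller rule, against 4.14% of all genes, and 2 were lower, against 2.46%. The higher ones were Il13, Ccl3, Ccl4, Csf1 and Cxcl10, and the lower ones Il3 and Ccl5. Il13 had 219 reads in WWP2 KO, 3206 in Itch KO, 2997 in the library labelled double KO and 117 in wild type (1.89-fold, 1.51 to 2.39). Il4 had 31 reads in WWP2 KO and 27 in wild type (1.16-fold, 0.671 to 2.02), Il5 had 11 in each (1.01-fold, 0.398 to 2.57) and Gata3, their lineage factor, had 654 in WWP2 KO and 621 in wild type (1.07-fold, 0.953 to 1.19). For Il4 and Il5 a difference inside these intervals was not detectable at this depth. Of 17 tested TH2 genes 2, Il13 and the chemokine receptor gene Ccr8 at 1.51-fold (1.29 to 1.76), were higher and 0 lower, against 4.14% and 2.46% of all genes, with a median of 0.11. Over the same wild-type library the TH2 median was 2.12 in Itch KO, and the library labelled double KO stood at 3.50. Il4, Il5, Il9 and Pparg met the mean of 2 CPM only through the Itch KO and labelled double KO libraries. The high medians there are thus partly set by the filter.

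Of 15 tested TH1 genes 3 were at least 25% higher and 2 at least 20% lower, against 4.14% and 2.46% of all genes. The chemokine gene Ccl3 had 121 reads in WWP2 KO, 98 in Itch KO, 18 in the library labelled double KO and 64 in wild type (1.91-fold, 1.4 to 2.63). Its neighbour in function, Ccl4, had 513 reads in WWP2 KO, 526 in Itch KO, 87 in the library labelled double KO and 287 in wild type (1.81-fold, 1.56 to 2.10). Ccl5, by contrast, was at 0.630-fold (0.510 to 0.777). Tbx21, the TH1 lineage factor, was level at 0.998-fold (0.942 to 1.06). Il2, the T cell growth factor, had 4226 reads in WWP2 KO, 5779 in Itch KO, 270 in the library labelled double KO and 5139 in wild type (0.832-fold, 0.798 to 0.866). Tnf was at 0.864-fold (0.834 to 0.895), Il21 at 0.876-fold (0.646 to 1.19), Csf2 at 1.20-fold (0.932 to 1.54) and Il10 at 0.933-fold (0.698 to 1.24). Bcl6, the TFH lineage factor, was at 0.863-fold (0.794 to 0.938). Of 16 tested TFH genes 0 passed the smaller rule in either direction, against 4.14% higher and 2.46% lower among all genes.

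Genes of the signalling machinery were mostly held. T cell receptor signalling genes had 25 of 31 members held, immediate early genes 25 of 31, NF-kB members and targets 21 of 25, and NFAT and calcium genes 16 of 18. All tested genes gave 57.1%, but 29, 25, 25 and 14 members of these lists lay in the 2 most expressed of the 5 bins, where 88.6% and 94.8% of genes were held. The 6 held genes with the most reads were the elongation factor genes Eef1a1 and Eef2, the chaperone genes Hsp90ab1 and Hspa8, the actin-bundling gene Lcp1 and Irf4, at ratios between 0.901 and 0.998. Eef1a1 had 183623 reads in WWP2 KO and 206145 in wild type. Irf4, a transcription factor induced by receptor signals, had 66244 reads in WWP2 KO and 67135 in wild type (0.998-fold, 0.987 to 1.01). Ptpn6, encoding the phosphatase SHP-1, was at 0.936-fold (0.883 to 0.993). Among the 31 immediate early genes Klf2 and Jun, at 1.27-fold (1.13 to 1.42), were higher and 0 were lower, against 4.14% and 2.46% of all genes. Egr3 and the diacylglycerol kinase gene Dgka, a target of Egr factors, were at 1.27-fold each (1.15 to 1.4 for Egr3 and 1.23 to 1.31 for Dgka).

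Cell cycle genes had a median of -0.04, with 0 of 40 tested members higher and 2 lower, against 4.14% and 2.46% of all genes. The lower ones were Tyms at 0.592-fold (0.406 to 0.855) and the cyclin gene Ccnb1 at 0.594-fold (0.355 to 0.975). Of the 40, 12 were held, against 57.1% of all genes, and 13 lay in the 2 most expressed bins. Ccnb1 had 27 reads in WWP2 KO and 46 in wild type, too few to show a small difference. Over the same wild-type library the cell cycle median was 1.14 in Itch KO, and the library labelled double KO stood at 2.53.

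Housekeeping groups showed small shifts in 1 direction. Ribosomal protein genes had a median of -0.13 with 75 of 77 members below 0, oxidative phosphorylation genes -0.12 with 73 of 78 below 0, proteasome genes -0.13 with 41 of 44 below 0, heat shock genes -0.13 with 16 of 19 below 0 and ribosome biogenesis genes -0.10 with 30 of 30 below 0. The median of all tested genes was -0.01. In Itch KO over the same wild-type library the list medians were -0.18, -0.13, -0.05, -0.05 and 0.03 in the same order. For the library labelled double KO over wild type they were -0.33, 0.04, -0.06, -0.47 and -0.91. Few members passed the 20% bound in WWP2 KO, these being Rpl41 at 0.790-fold (0.770 to 0.810), Rps27l at 0.783-fold (0.711 to 0.861) and Hspa1a at 0.654-fold (0.454 to 0.935). The median ratio fell with level, from 0.03 in the least expressed of the 5 bins to -0.03 in the most expressed. Ribosomal protein genes had a median level of 812 CPM and tRNA synthetase genes 304 CPM. Ratios were not centred on level. The ratios also followed transcript length. Over all tested genes the median was higher in each bin of longer transcripts, at -0.07, -0.03, -0.01, 0.01 and 0.05 in 5 equal bins whose median lengths were 1480, 2547, 3468, 4502 and 6797 bases. Genes at least 20% lower made up 4.16% of the shortest bin and 1.22% of the longest, and genes at least 25% higher made up 2.84% of the shortest and 6.60% of the longest. In Itch KO over the same wild-type library the bin medians ran from -0.05 to 0.00, and those of the library labelled double KO ran the other way, from 0.03 in the shortest bin to -0.07 in the longest.

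Ribosomal protein genes had a median length of 1059 bases and oxidative phosphorylation genes 1232. When each gene was set against the median of genes of like length, the list medians became -0.06 for ribosomal proteins, -0.06 for oxidative phosphorylation and -0.07 for the proteasome. Those of heat shock (-0.12), tRNA synthetases (-0.13), ribosome biogenesis (-0.09) and p53 targets (-0.23) stayed close to the medians given above. Treg (0.22), naive and quiescence (0.21) and interferon-stimulated genes (0.22) kept medians above 0, and effector and memory genes stood at -0.08.

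**Figure D5:**
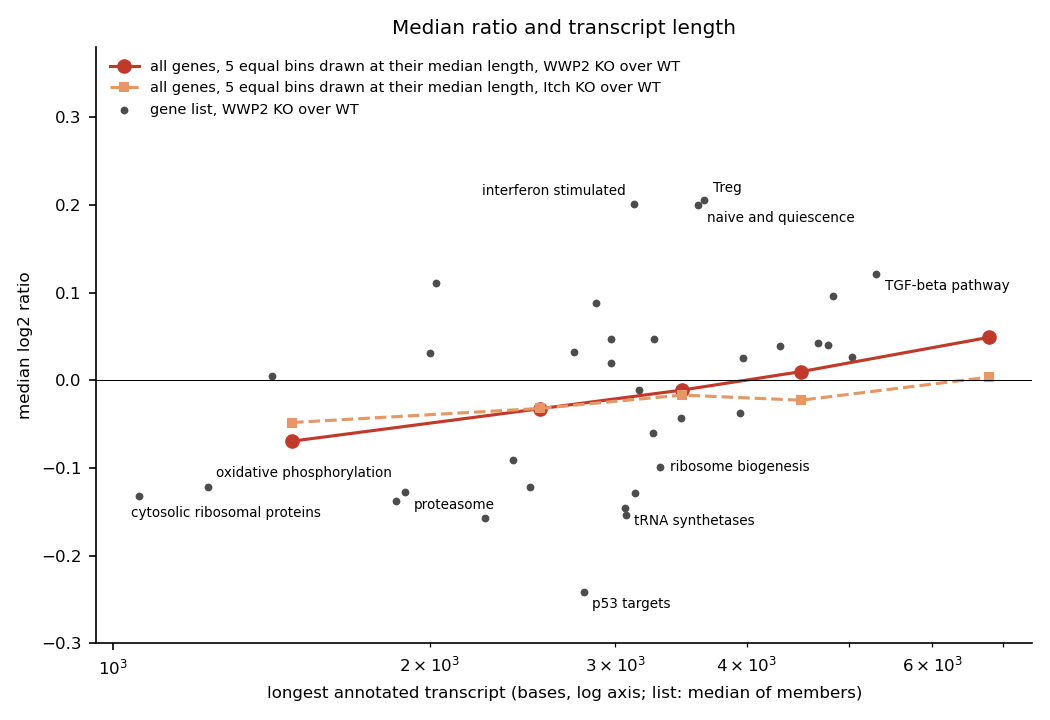
Median log2 ratio against the length of the longest annotated transcript (bases, log axis) for all tested genes in 5 equal bins (red, WWP2 KO over wild type; orange, Itch KO over wild type) and for each of the 34 lists of function (grey, WWP2 KO over wild type). The red line runs from -0.07 to 0.05, and p53 targets at -0.24 and Treg genes at 0.21 lie far from it.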

How the data were processed

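RNA of 4 libraries was sequenced, and the authors deposited whole-number read counts for 21937 gene symbols. The submitters' processing notes name TopHat 1.4.1, Bowtie 1.0.0, HTSeq 0.7.1 and mm9. Annotation, strand setting and filters were not given in the sources used here, so antisense pairs and near-identical copies may share reads. Counts were scaled by TMM factors from all 4 libraries (1.00 for WWP2 KO, 0.983 for Itch KO, 1.03 for the library labelled double KO, 0.984 for wild type) with edgeR 4.0.16 in R 4.3.3; DESeq2 1.42.0 gave alternative size factors. Ratios and exact conditional binomial intervals came from scipy 1.17.1 with pandas 2.3.3 under Python 3.11.15. Log2 ratios carry a prior count of 2, folds none, and a fold against 0 reads is a bound from 3 reads. Intervals cover counting error only, since reads are not independent molecules.

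Symbols were matched to RefSeq (GRCm38.p6) for 98.9% of genes, for gene order and promoters only. Lengths came from GENCODE M21 transcripts for 99.2% of tested genes, taking the longest transcript. Genes named are Wwp2, Itch, those past the 2-fold rule, 16 cytokine and lineage genes, the ligase family and substrates, the 6 held genes with the most reads, and up to 3 extremes of a list. Rankings skipped unnamed models, small RNAs, receptor segments and sex-linked genes; further list members past the smaller rule, marker genes, neighbours of Wwp2 and Mtf1 were named after their values were seen. Some named genes and list members are not reported here. Members and lists were chosen with earlier results of these data known.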

Additional observations from a re-analysis of the deposited data

How the results depend on the processing

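No paired analysis was possible because each genotype has 1 library. With no replicate, none of the differences has an error between mice, and low counts limit most genes past 2-fold. Without a minimum on the mean CPM, 117 genes were at least 2-fold higher and 56 lower; with a minimum of 10 CPM these were 6 and 7, and genes at least 25% higher and 20% lower were 249 and 152, fewer genes being tested. Centring on genes of like transcript length, an alternative chosen after seeing the data, moved the ribosomal protein median to -0.063. The medians of the TH17, TFH, cytokine and adhesion lists, all near 0 or of few genes, changed sign in 1, 2, 1 and 1 of 7 alternatives. Library totals, DESeq2 size factors, TMM factors from the 2 libraries alone, a filter from those libraries (also chosen after seeing the data) and a prior count of 0.5 kept all counts within 1.5 times. Folds of named genes were recomputed under the first 3 of these, and no called gene among them changed direction.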

Other observations

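TGF-beta pathway genes had a median of 0.12, with 2 of 14 tested members, Tgfbr3 and Itgae, at least 25% higher and 0 at least 20% lower, against 4.14% and 2.46% of all genes. The same shares stand beside the counts of every list that follows. Cholesterol and fatty acid synthesis genes had a median of 0.04 with 1 of 25 higher, Pmvk at 1.52-fold (1.14 to 2.03), and glycolysis genes -0.06 with 0 of 19 past either bound and 16 held. Bcl2 family genes had a median of -0.12 with 2 of 14 lower, Bmf at 0.528-fold (0.342 to 0.801) and Bbc3. Polyamine synthesis genes had a median of -0.16 with 1 of 10 lower, Oaz1. At 0.933 CPM in WWP2 KO and 2.42 CPM in wild type, Oaz1 met the mean of 2 CPM only through the other libraries. Coinhibitory and TNF receptor genes had a median of 0.03 with Tnfrsf25 at 1.28-fold (1.17 to 1.4) and Cd96 at 0.695-fold (0.604 to 0.799). Among 29 adhesion and chemokine receptor genes, whose median was 0.02, 5 were higher and 3 lower, against 4.14% and 2.46% of all genes. Itga6 was among the higher at 1.41-fold (1.27 to 1.56). The median of the 31 cytokine and chemokine genes was 0.01. TH17 genes had a median of -0.15 with 1 of 7 higher, Ahr at 1.27-fold (1.09 to 1.49). Egr and Nr4a genes had a median of 0.05 with 2 of 14 higher and 1, Cdkn1a, lower. Male-specific genes were read in both libraries, with 4189 reads of Ddx3y in WWP2 KO and 4428 in wild type.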
